A study of Mus musculus with 24 samples.

Results

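A set of 10 genes that move bicarbonate and ammonia, make bicarbonate from carbon dioxide or set the identity of the cells that do so was followed through the day in 2 segments of the mouse kidney tubule.
They are the forkhead factor Foxi1, the anion exchangers Slc26a4, Slc4a9, Slc4a8 and Slc4a1, the carbonic anhydrases Car2, Car12 and Car15, and the ammonia transporters Rhbg and Rhcg.
They were chosen by name, and all probe sets that carry 1 of these symbols alone were taken, 18 of 34958 such probe sets, for 10 of 18194 genes.
Where a gene had several probe sets its value is that of the brightest by the mean of the 24 arrays, which left a choice for Slc4a1 (3 probe sets), Slc4a8 (5) and Car12 (3).

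The RNA came from left kidneys of male C57BL/6J mice, fed standard chow and adapted to 12 h light and 12 h dark, and no genetic change or drug is named in the labels.
Age is not given in the sources used here.
Tubules were dissected by hand after collagenase digestion, either as cortical collecting ducts (CCD) or as a mix of distal convoluted and connecting tubules (DCT/CNT).
Mice were killed every 4 h at zeitgeber times ZT0, ZT4, ZT8, ZT12, ZT16 and ZT20, where ZT0 is lights on and ZT12 lights off.
Each of the 12 groups (2 segments, 6 times) has 2 pools, built from 5 animals per time, and each pool gave 1 array from 10 ng of amplified RNA.
The labels do not say whether both pools of a time hold the same animals, so p-values cannot be taken to measure the spread between animals. Those for segment differences measure the spread between pools. Those from the 24 h fits also take in how far the times depart from the fitted curve, and those for gene pairs the spread over times.
Values are RMA expression levels on a log2 scale, where a difference of 1 is a doubling of signal, and precision is limited by the number of arrays.
In a dissected segment, fewer cells of a type and less RNA per cell cannot be told apart.

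Connecting tubules and collecting ducts are a mosaic of principal cells, which handle sodium and water, and intercalated cells, which handle acid and base.
Type A intercalated cells secrete acid: cytosolic carbonic anhydrase hydrates carbon dioxide, a proton pump sends the proton to the urine, and Slc4a1 (the anion exchanger AE1) returns bicarbonate to the blood.
Type B cells work the other way round, with Slc26a4 (pendrin) exchanging chloride for bicarbonate at the luminal side, and in connecting tubules and cortical collecting ducts they also reabsorb salt.
Ammonia leaves through Rhbg and Rhcg and carries acid into the urine, and Foxi1 is the transcription factor without which intercalated cells do not mature.

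The 250 bases before an annotated transcription start, from RefSeq (GRCm38.p6), were at hand for 6 of the 10 genes. For Car12 this start (66713686) and its whole window lie inside the annotated gene, which begins at 66712296. The Slc26a4 gene, on the minus strand, reaches to 31560055, so the part of its window nearest the start lies inside the gene. That part holds the TATA box named below.
They were searched on both strands for the forkhead core TGTTTA and its longer form TGTTTAC, the clock elements CACGTG (E-box), TTATGTAA (D-box) and TAGGTCA (ROR element), and the TATA box TATAAA.
The windows of 3 genes called rhythmic over both segments are shown, because Foxi1 binds forkhead sites and is held to act on Slc26a4.
Capitals mark a match to TATAAA or TGTTTA.
Slc26a4, chr12:31559985-31560234, minus strand: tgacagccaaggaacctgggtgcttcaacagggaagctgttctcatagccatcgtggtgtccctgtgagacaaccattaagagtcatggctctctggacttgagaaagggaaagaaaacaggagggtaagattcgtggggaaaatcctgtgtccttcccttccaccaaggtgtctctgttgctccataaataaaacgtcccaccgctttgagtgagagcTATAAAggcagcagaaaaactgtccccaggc
Car12, chr9:66713436-66713685, plus strand: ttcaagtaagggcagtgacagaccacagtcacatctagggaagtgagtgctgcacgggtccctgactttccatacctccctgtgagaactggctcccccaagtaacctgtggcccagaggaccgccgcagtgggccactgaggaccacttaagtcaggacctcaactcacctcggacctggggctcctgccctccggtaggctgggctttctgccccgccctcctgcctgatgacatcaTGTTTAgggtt
Foxi1, chr11:34208090-34208339, minus strand: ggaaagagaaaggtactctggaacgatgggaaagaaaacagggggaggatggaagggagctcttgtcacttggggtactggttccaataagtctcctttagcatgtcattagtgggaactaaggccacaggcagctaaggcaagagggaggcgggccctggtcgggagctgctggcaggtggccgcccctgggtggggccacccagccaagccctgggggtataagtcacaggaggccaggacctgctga
The Slc26a4 window held a TATA box that begins 31 bases before the start, as do 12.4% of all 32851 windows of this length somewhere in their span.
The Car12 window held a forkhead core 11 bases before the start, and 12% of all windows hold one.
No other match to these 6 motifs was found in the 6 windows (the other 3 belong to Slc4a8, Car15 and Rhcg), and a missing match says only that these letters are not in this stretch. The looser E-box core CANNTG, also searched, was in the windows of Slc4a8, Foxi1 and Rhcg, as in 66.2% of all windows.
TGTTTAC is in 3.17% of all windows, CACGTG in 6.02%, TTATGTAA in 0.819% and TAGGTCA in 2.23%.
The TGTTTA and TGTTTAC searches overlap, since the longer holds the shorter.

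The segments carried their defining genes.
All 6 measured DCT and CNT markers of 7 listed were higher in DCT/CNT under all 4 scalings described below, led by Slc12a3, the thiazide-sensitive cotransporter of the distal convoluted tubule, with a mean of 10.8 there and 5.28 in CCD.
All 9 principal cell markers were lower in DCT/CNT as deposited, led by the transcription factor Elf5 at 5.91 against 9.58. Under the other scalings 7 or 8 were called lower, and 1 was called higher with equal array medians and with cyclic loess.
Markers of other tubule segments were present in both: the loop marker Umod read 11.3 in DCT/CNT and 9.99 in CCD, and the proximal marker Kap 11.4 and 11.9.
The spread of values on an array (interquartile range over all probe sets) was 3.32 to 3.65 in DCT/CNT and 4.08 to 4.28 in CCD, with no overlap, and this bears on every comparison between the segments below.
No 2 arrays held the same values.

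**Figure D1:**
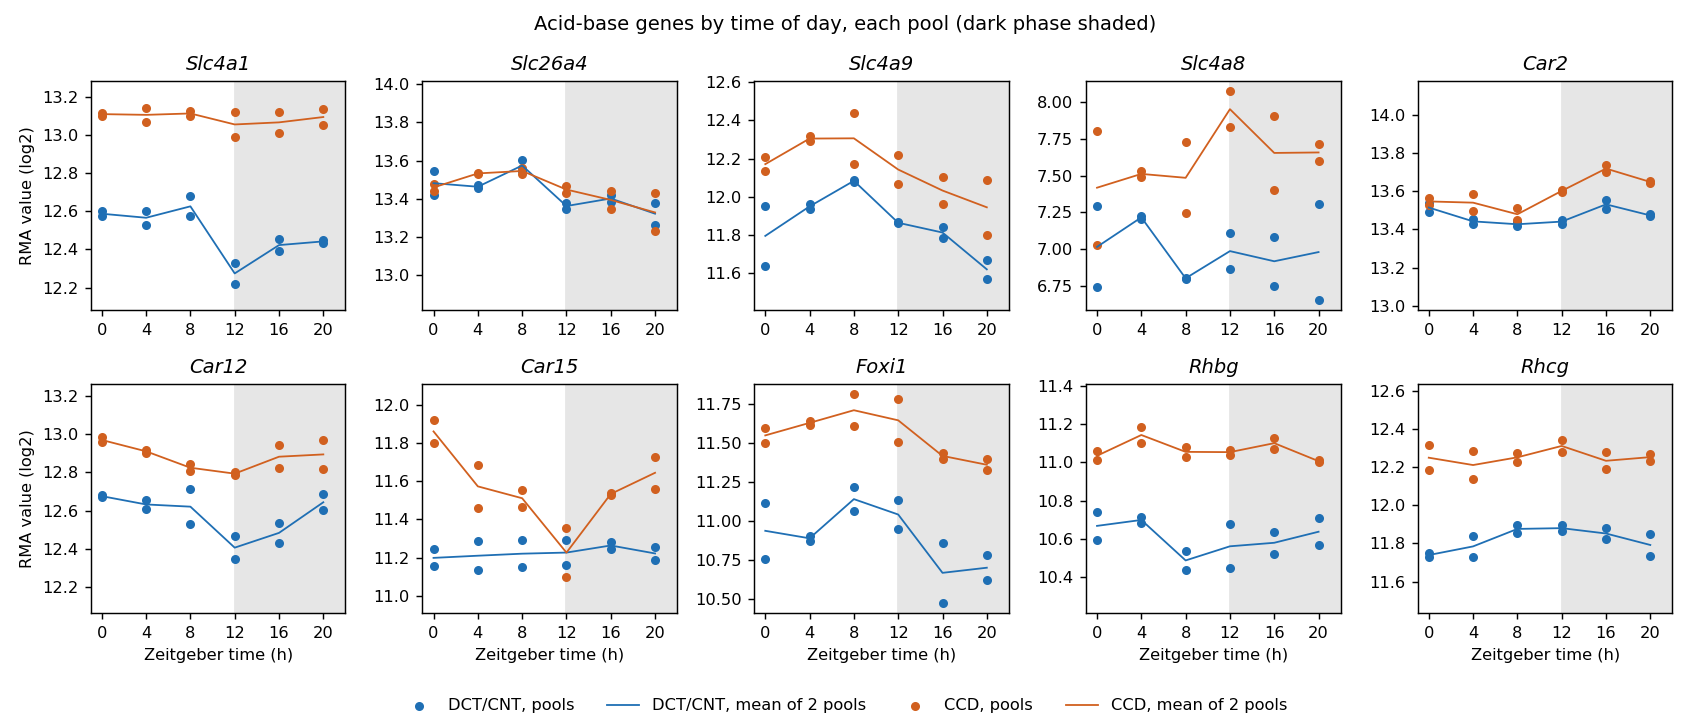
RMA values (log2) of the 10 genes against zeitgeber time, 1 point per pool, with lines through the mean of 2 pools; every panel spans at least 1.2 log2 units and dark phase is shaded. Foxi1, Slc4a9 and Slc26a4 have their highest mean at ZT8 in both segments, and Car15 moves in CCD (11.23 at ZT12, 11.86 at ZT0) but stays between 11.13 and 11.29 in DCT/CNT.

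Foxi1, the regulator, was highest in the light phase in both segments.
In DCT/CNT its 2 pools read 11.06 and 11.22 at ZT8 and 10.62 and 10.78 at ZT20, and in CCD 11.61 and 11.81 at ZT8 and 11.32 and 11.39 at ZT20.
The pools of ZT8 lay above those of ZT20 in both segments without overlap.
The lowest mean was at ZT16 in DCT/CNT and at ZT20 in CCD.
A 24 h cosine fit gave an amplitude (how far the fitted curve rises above its own mean) of 0.20 (SE 0.06) with a peak at ZT 7.36 in DCT/CNT and of 0.17 (SE 0.06) with a peak at ZT 7.25 in CCD.
Neither passed in its own segment (limma moderated F test, adjusted p = 0.0819 and 0.274). In DCT/CNT 1 of 24 single-array omissions gave a call, that of pool 2 of ZT0 (adjusted p = 0.0332), while others raised the adjusted p to as much as 0.201. Leaving out any 1 time gave no call (adjusted p = 0.0667 to 0.317).

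Slc4a9 (AE4), the exchanger on the blood side of type B cells, also had its highest mean at ZT8 in both segments and was the member called rhythmic in DCT/CNT.
In DCT/CNT both pools read 12.08 and 12.09 at ZT8, and 11.57 and 11.67 at ZT20.
The ZT8 pools were the highest of all 12 DCT/CNT arrays, whereas 1 of the ZT0 pools (11.64) was as low as those of ZT20.
The fit rose and fell by 0.19 (SE 0.05) around its mean, a peak-to-trough ratio of 1.30, with the peak at ZT 7.60 (adjusted p = 0.0402, limma).
In CCD the amplitude was much the same, 0.18 (SE 0.05) with a peak at ZT 6.11, and the adjusted p was 0.0858.
The CCD pools read 12.17 and 12.44 at ZT8 and 11.80 and 12.09 at ZT20, a wider spread between pools than in DCT/CNT.
The difference between the 2 rhythms was not called (adjusted p = 0.885).

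Slc26a4 (pendrin), the luminal chloride and bicarbonate exchanger of type B cells, had its highest mean at ZT8 and its lowest at ZT20 in both segments, as Slc4a9 did, with smaller amplitudes.
Its DCT/CNT pools read 13.54 and 13.60 at ZT8 and 13.26 and 13.38 at ZT20; its CCD pools read 13.53 and 13.56 at ZT8 and 13.23 and 13.43 at ZT20.
In each segment the ZT8 pools lay above the ZT20 pools.
Amplitudes were 0.09 (SE 0.04, peak ZT 5.66) in DCT/CNT and 0.10 (SE 0.04, peak ZT 6.35) in CCD, and neither was called (adjusted p = 0.231 and 0.290, limma).
The highest value on an array was 14.2 to 14.4, so this probe set and that of Car2 lie near the top of the measured range, and the effect of that on their differences was not tested.

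Slc4a8, the sodium-driven chloride and bicarbonate exchanger that pairs with pendrin in salt reabsorption, showed no course that stood out from its pool scatter.
Its values ran from 6.66 to 7.31 (median 6.98) in DCT/CNT and from 7.03 to 8.07 (median 7.66) in CCD.
The 2 pools of CCD at ZT0 alone read 7.03 and 7.80.
The SE of its amplitude was 0.10 in each segment, so that the fitted 0.10 in DCT/CNT and 0.19 in CCD were within 2 SE of 0 (adjusted p = 0.795 and 0.618).

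Slc4a1, the exchanger of type A cells, dipped at lights off in DCT/CNT.
There the pools read 12.22 and 12.33 at ZT12, below all other DCT/CNT arrays, and 12.57 and 12.68 at ZT8.
In CCD all 12 arrays lay between 12.99 and 13.14.
The DCT/CNT amplitude was 0.14 (SE 0.04, peak ZT 2.94) and missed the threshold (adjusted p = 0.0755), the CCD amplitude was 0.03 (SE 0.04), and the difference in rhythm was not called (adjusted p = 0.685).
Proximal tubule markers had their highest level at the same time: the mean of all 10 was 8.20 at ZT12 and 6.78 at ZT4 in DCT/CNT (6.72 to 8.23 over arrays), and 7.83 and 7.20 in CCD (6.86 to 8.25).
With proximal tubule and loop markers as covariates the DCT/CNT amplitude of Slc4a1 was 0.09 (adjusted p = 0.459) and that of Car12, described below, 0.12 (adjusted p = 0.294); the part of these markers was not tested.
Slc4a1 is also the anion exchanger of red cells.
Of the erythrocyte markers 6 of 8 were measured, and their mean ranged from 3.78 to 4.11 over DCT/CNT arrays and from 3.56 to 3.94 over CCD arrays, at the dim end of the arrays.
The haemoglobin gene Hba-a1 averaged 4.19 and 3.81 and the haem synthesis gene Alas2 3.85 and 3.55 in DCT/CNT and CCD; RMA values have no true zero.

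Car15, a carbonic anhydrase anchored to the outer cell membrane, had the largest fitted amplitude of the 10 genes in CCD and the smallest in DCT/CNT.
In CCD its pools read 11.80 and 11.92 at ZT0, fell to 11.10 and 11.35 at ZT12 and read 11.56 and 11.73 at ZT20.
In DCT/CNT all 12 arrays lay between 11.13 and 11.29, with no time apart from the rest.
The CCD amplitude was 0.24 (SE 0.05), a peak-to-trough ratio of 1.40 with the peak at ZT 23.6 (adjusted p = 0.0177, limma); in DCT/CNT it was 0.02 (SE 0.05, adjusted p = 0.931).
The difference between the rhythms was tested on its own and was not called (limma, unadjusted p = 0.00317, adjusted p = 0.415).
The CCD call was lost without pool 1 of ZT0 or pool 1 of ZT12 (adjusted p = 0.073 and 0.079), and without either of these times altogether.
With the tubule marker covariates it held (amplitude 0.27, adjusted p = 0.0285).

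Car12, a membrane enzyme with its active site outside the cell, was highest at ZT0 and lowest at ZT12 in both segments.
In DCT/CNT its pools read 12.67 and 12.68 at ZT0 and 12.34 and 12.47 at ZT12, and in CCD 12.96 and 12.98 against 12.79 and 12.80.
The ZT0 and ZT12 pools did not overlap in either segment.
The amplitude was 0.12 (SE 0.04, peak ZT 1.14) in DCT/CNT and 0.08 (SE 0.04, peak ZT 23.4) in CCD, and neither was called (adjusted p = 0.0863 and 0.538).
Car2, the cytosolic enzyme shared by many cell types of the collecting duct, ran against these courses with its highest mean at ZT16.
Its CCD pools read 13.70 and 13.74 at ZT16 and 13.45 and 13.51 at ZT8, and its DCT/CNT pools read 13.51 and 13.55 against 13.42 and 13.44.
The CCD amplitude was 0.10 (SE 0.03, peak ZT 17.3) and that in DCT/CNT 0.04 (SE 0.03, peak ZT 19.6), with adjusted p = 0.157 and 0.589.

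Neither ammonia transporter passed the test in either segment.
Rhcg, found on the luminal side, ranged from 11.73 to 11.90 in DCT/CNT and from 12.14 to 12.34 in CCD, and Rhbg, on the blood side, from 10.44 to 10.74 and from 11.00 to 11.18.
Their largest amplitude was 0.08 (SE 0.04), for Rhbg in DCT/CNT, and their smallest adjusted p was 0.310, for Rhcg in DCT/CNT.
The pools of the highest and the lowest time of Rhcg overlapped in CCD.

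In all, 1 of the 10 genes was called rhythmic in DCT/CNT (Slc4a9), where 6.57% of all genes were called, and 1 in CCD (Car15), where 2.47% were.
None was called different in rhythm between the segments (0.011% of all genes were), and 1 of the 10 (Car15) had an unadjusted p under 0.05 in that test against 1617 of 18194 genes.
At an unadjusted p under 0.05, 4 of the 10 stood in DCT/CNT and 5 in CCD, against 4460 and 2576 of all genes.
The median amplitude of the 10 was 0.09 in DCT/CNT and 0.10 in CCD, and that of all genes 0.13 and 0.10.
The DCT/CNT call depended on single arrays: 9 of 24 single-array omissions ended it (adjusted p up to 0.108), namely pool 1 of ZT0, both pools of ZT4, ZT8 and ZT20, pool 2 of ZT16 and pool 1 of CCD at ZT4, as did leaving out any 1 time.

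**Figure D2:**
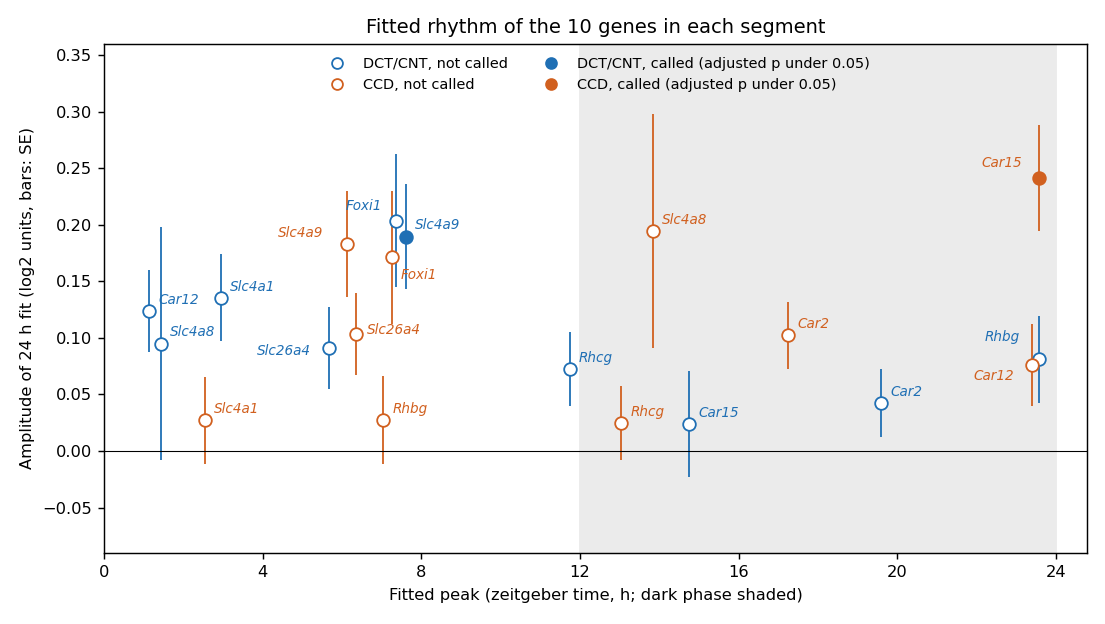
Amplitude of the 24 h fit (log2 units, bars are SE) against the fitted peak time for each gene in each segment; filled points passed the test. The filled points are Slc4a9 in DCT/CNT (0.19, ZT 7.60) and Car15 in CCD (0.24, ZT 23.6), and the points of Foxi1, Slc4a9 and Slc26a4 from both segments lie between ZT 5.66 and ZT 7.60.

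Since no rhythm difference was called, 1 common rhythm was also fitted to both segments, a choice made after seeing the data.
Then 4 of the 10 genes were called, against 11.1% of all genes. All 4 had fitted peaks in the light phase (6.21% of all genes were called with such a peak), that of Car12 within its SE of lights on.
Slc4a9 had an amplitude of 0.18 (SE 0.03) with its peak at ZT 6.87 (adjusted p = 0.00287), and Foxi1 one of 0.19 (SE 0.04) at ZT 7.31 (adjusted p = 0.0140).
Slc26a4 followed with 0.10 (SE 0.03) at ZT 6.03 (adjusted p = 0.0423), and Car12 with 0.10 (SE 0.03) at ZT 0.477 (adjusted p = 0.0409). The SE of the Car12 peak time was 1.01 h, so this peak cannot be placed on either side of lights on. The dimmer Car12 probe sets were not called (limma, adjusted p = 0.520 with a peak at ZT 20.2, and 0.267 with a peak at ZT 0.107).
The calls of Slc4a9 and Foxi1 held in all 24 single-array omissions.
That of Foxi1 was lost without ZT8 (adjusted p = 0.122), ZT16 (0.0529) or ZT20 (0.121), and without the 3 DCT/CNT arrays of narrowest spread (0.0606), whereas that of Slc4a9 held in each of these.
In an F test over the group means neither was called (adjusted p = 0.0674 for Slc4a9 and 0.0959 for Foxi1).
The calls of Slc26a4 and Car12 were lost in 16 and 17 of the 24 single-array omissions, with adjusted p up to 0.0857 and 0.0949.
Not called were Car15 (adjusted p = 0.0694), Car2 (0.0821, peak ZT 17.9), Slc4a1 (0.121), Rhcg (0.346), Rhbg (0.617) and Slc4a8 (0.882).

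The array-to-array courses of Slc26a4, Slc4a9 and Foxi1 were positively correlated, and that of Slc4a8 was not.
After subtraction of each segment's mean, Pearson's r over 24 arrays was 0.84 for Slc26a4 with Slc4a9, 0.71 for Slc4a9 with Foxi1 and 0.66 for Slc26a4 with Foxi1.
For Slc4a8 it was -0.30 with Slc26a4, -0.16 with Slc4a9 and -0.08 with Foxi1.
Car2 ran opposite, with r of -0.57 to Slc4a9 and -0.52 to Foxi1, and Slc4a1 was nearest to Car12 (0.61).
These points share their time of day and their pool, so the values only describe.
The mean of 13 measured intercalated cell markers that are not among the 10 genes was highest at ZT8 and lowest at ZT20 in both segments, 9.43 against 9.10 in DCT/CNT and 9.92 against 9.64 in CCD.
Over both segments 8 of the 13 were called, all with fitted light-phase peaks (11.1% of all genes were called, and 6.21% with such a peak). They were the proton pump subunit Atp6v1c2, the receptor genes Kit, Insrr and P2ry14, Hepacam2, the water channel gene Aqp6, and the transcription factors Dmrt2 and Hmx2.
Hmx2 had the amplitude 0.32 (SE 0.05) at ZT 5.32 and Atp6v1c2 0.16 (SE 0.03) at ZT 8.09. Aqp6 had its peak at ZT 11.9, next to lights off, and its fit in CCD alone peaked at ZT 13.4, in the dark phase.
The other 5 (Atp6v1b1, Atp6v0a4, Atp6v0d2, Oxgr1 and Clnk) were not called over both segments (limma, adjusted p = 0.0603 to 0.774).
In DCT/CNT 3 of the 13 were called and in CCD 4, against 6.57% and 2.47% of all genes.
Against this list's mean, r over 24 arrays was 0.81 for Slc4a9, 0.78 for Foxi1, 0.76 for Slc26a4, 0.37 for Slc4a1 and -0.52 for Car2.
With the list's mean as a covariate, the amplitude over both segments was 0.05 for Slc4a9, 0.03 for Foxi1 and 0.04 for Slc26a4 and none of the 10 genes was called; the amplitude of Car12 was 0.11 and that of Car15 in CCD 0.26.
The list's part in these rhythms was not tested.
Of the 9 principal cell markers 3 were called over both segments, Aqp2 (peak ZT 16.8), Aqp4 (ZT 18.8) and Avpr2 (ZT 20.9), and the 6 not called had no common peak time, from ZT 6.48 for Fxyd4 to ZT 23.7 for Scnn1g.

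**Figure D3:**
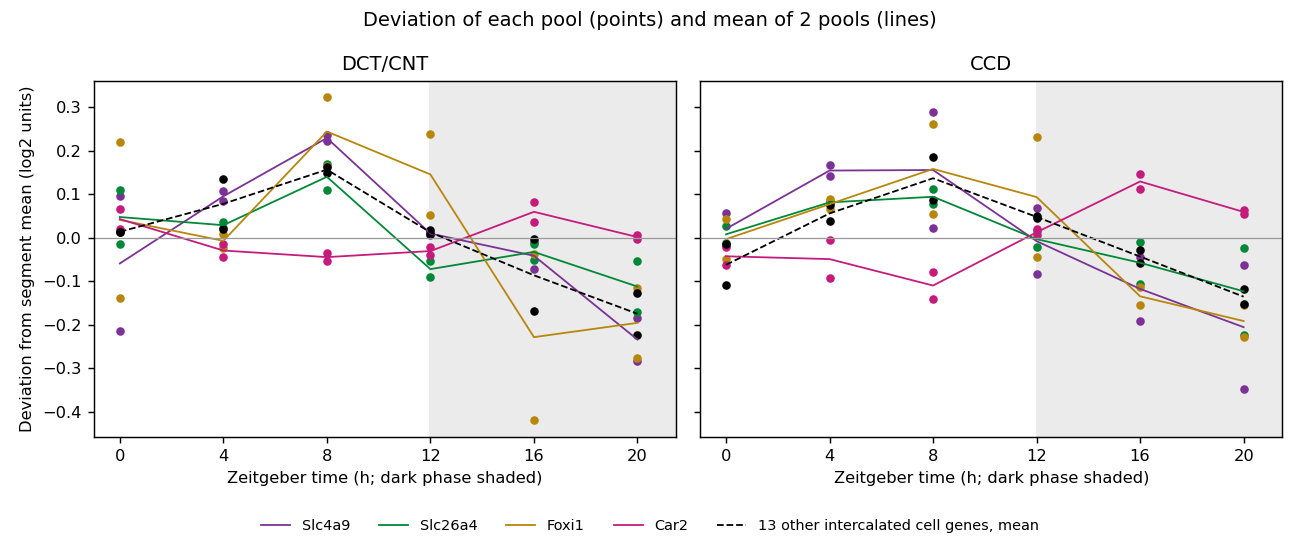
Deviation of each pool (points) and of the mean of 2 pools (lines) from the segment mean, in log2 units, against zeitgeber time, for Slc4a9, Slc26a4, Foxi1, Car2 and the mean of 13 other intercalated cell markers (dashed). In both segments the dashed line and those of Slc4a9, Slc26a4 and Foxi1 are highest at ZT8, while Car2 is lowest there.

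Between the segments, 9 of the 10 genes were lower in DCT/CNT than in CCD in the deposited values, as 47% of all genes were, and none was higher, as 30.4% were; 77.4% of all genes differed in 1 direction or the other.
A difference here is DCT/CNT minus CCD, each averaged over its 6 times (limma, adjusted over all genes), and the median gene differed by -0.13.
Foxi1 ranged from 10.47 to 11.22 (median 10.89) in DCT/CNT and from 11.32 to 11.81 (median 11.55) in CCD, a difference of -0.66 (SE 0.06, adjusted p = 7.22e-08), or -0.53 relative to the median gene.
The 12 arrays of each segment did not overlap as deposited.
Slc4a1 ranged from 12.22 to 12.68 (median 12.49) and from 12.99 to 13.14 (median 13.11), a difference of -0.60 (SE 0.04, adjusted p = 5.93e-10), or -0.48 relative to the median gene.
Its arrays did not overlap either.
Slc4a8 differed by -0.62 (SE 0.11, adjusted p = 8.41e-05), with overlapping arrays.
Rhbg and Rhcg differed by -0.46 (SE 0.04) and -0.43 (SE 0.04), Car15 by -0.33 (SE 0.05), Car12 by -0.30 (SE 0.04), Slc4a9 by -0.30 (SE 0.05) and Car2 by -0.12 (SE 0.03).
In 5 of the 10 (Slc4a1, Car12, Foxi1, Rhbg and Rhcg) the 12 DCT/CNT arrays all lay below the 12 CCD arrays, which held for 19.4% of all genes (8.43% had the reverse, none of the 10 among them).
After the median gene's difference (-0.13) was subtracted from every DCT/CNT array, the arrays of Foxi1 and Car12 overlapped between segments. Those of Slc4a1, Rhbg and Rhcg stayed apart.
Pendrin was the exception: Slc26a4 ranged from 13.26 to 13.60 (median 13.42) in DCT/CNT and from 13.23 to 13.56 (median 13.45) in CCD.
Its difference of -0.02 (SE 0.04, 95% interval -0.10 to 0.06, adjusted p = 0.677) was 0.11 above that of the median gene. The Slc26a4 and Car2 probe sets lie near the top of the measured range, and the effect of that on their segment differences was not tested.
Car15 was lower in DCT/CNT at 5 of 6 times only, because its CCD level fell to that of DCT/CNT at ZT12 (difference 0.00023).

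Differences between segments varied with the brightness of the probe set.
All genes were split into 10 groups of equal size by mean value, from the dimmest (group 1) to the brightest (group 10).
In group 10, where 9 of the 10 members lie, the median difference was -0.36 and 89.7% of genes were lower in DCT/CNT.
Slc4a8 lies in group 6, with a median of -0.32, whereas in group 2 the median gene was 0.41 higher in DCT/CNT.
The median of the 10 genes was -0.38.
Set beside group 10, Foxi1 and Slc4a1 lay further down and Slc26a4 and Car2 further up, while Car15, Car12, Slc4a9, Rhcg and Rhbg were near its median.

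**Figure D4:**
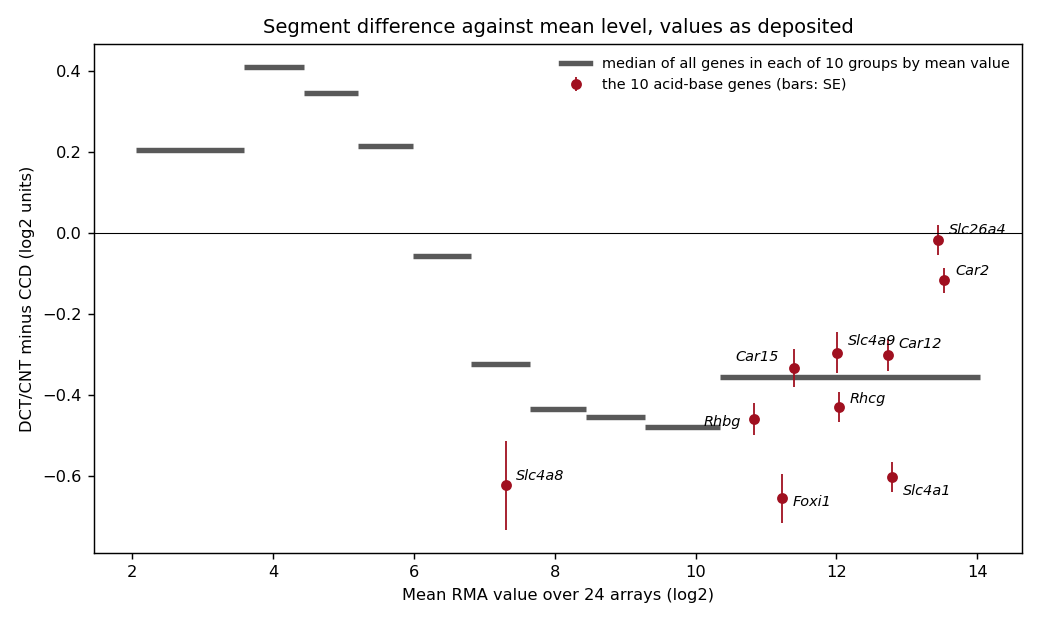
DCT/CNT minus CCD (log2 units, bars are SE) against the mean RMA value for the 10 genes (points), with the median difference of all genes in each of 10 groups by mean value (horizontal bars). Slc26a4 (-0.02) and Car2 (-0.12) sit above the bar of the brightest group at -0.36, and Foxi1 (-0.66) and Slc4a1 (-0.60) below it.

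The scale between segments is not settled by the arrays, so the comparison was repeated under 3 other scalings.
Foxi1, Slc4a1, Slc4a8 and Rhcg stayed lower in DCT/CNT and called under all 4, from -0.66 to -0.26, from -0.60 to -0.32, from -0.62 to -0.32 and from -0.43 to -0.09.
Slc26a4 was 0.19 higher with equal array medians and 0.21 higher with cyclic loess, and called in both, and differed by 0.08 with quantile normalization (adjusted p = 0.0939), while Car2 was 0.09 and 0.10 higher with equal medians and loess and called in both.
Slc4a9 turned to 0.02 and 0.04 and Car15 to 0.04 and 0.04 under quantile normalization and cyclic loess, without a call. Rhbg was called as deposited and with equal medians (-0.25), but not with quantile normalization (-0.04) or cyclic loess (-0.05). Car12 was called only as deposited, and differed by -0.09, -0.07 and -0.02 with equal medians, quantile normalization and loess.
Members called lower numbered 9 as deposited, 6 with equal medians, 4 with quantile normalization and 4 with loess, and called higher 0, 2, 0 and 2.
Of all 18194 genes, 8553, 6044, 5750 and 6017 were called lower in DCT/CNT, and 5522, 7966, 6013 and 6051 higher. As a share of the calls alone, those lower in DCT/CNT were 60.8%, 43.1%, 48.9% and 49.9%.

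**Figure D5:**
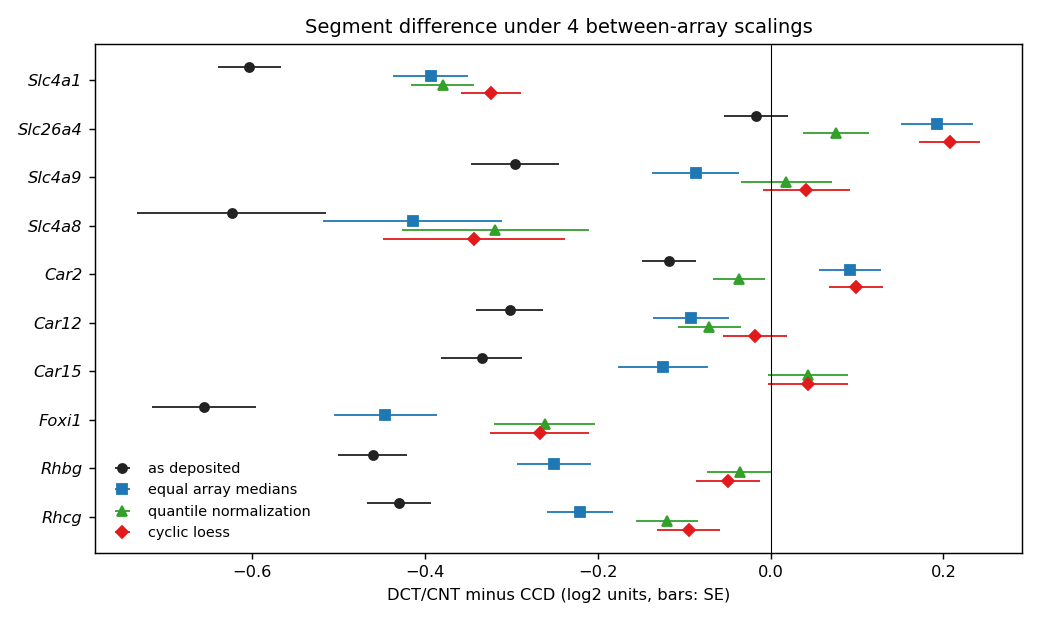
DCT/CNT minus CCD (log2 units, bars are SE) for each of the 10 genes under 4 scalings between arrays. Foxi1, Slc4a1, Slc4a8 and Rhcg lie left of 0 under all 4, and Slc26a4 and Car2 lie on either side of 0 depending on the scaling, Slc26a4 above 0 under all 3 but the deposited one.

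Within 1 array a shift of the whole array cancels, so 6 pairs of members were compared by the difference of their values on each array (permutation test, 100000 resamples, two-sided, adjusted over 6 pairs).
Such a difference shows unequal change between segments and not which gene changed. Whether the place of Slc26a4 and Car2 near the top of the measured range affects the pairs that hold them was not tested.
Slc26a4 stood 0.59 (SE 0.04) higher in DCT/CNT relative to Slc4a1, a ratio 1.50 times that in CCD, and no array of 1 segment overlapped those of the other (permutation p = 2e-05, adjusted 6e-05).
Pendrin and AE1 mark type B and type A cells.
Within the type B genes, Slc4a9 relative to Slc26a4 was 0.28 lower in DCT/CNT (difference -0.28, SE 0.04), again with no overlap (permutation p = 1e-05, the smallest the resamples can give, adjusted 6e-05).
Slc4a9 relative to Slc4a8 was 0.33 higher (SE 0.14, adjusted p = 0.0336), with overlap, and 6 of 24 single-array omissions ended that call (adjusted p up to 0.062): pool 2 of ZT0 and both pools of ZT8 in DCT/CNT, and pool 2 of ZT12, ZT16 and ZT20 in CCD.
Relative to Car2, Car12 was lower in DCT/CNT (difference -0.18, SE 0.05, adjusted p = 0.00128) and so was Car15 (-0.22, SE 0.07, adjusted p = 0.00753). Without ZT0 the call of Car15 relative to Car2 was lost (difference -0.13, adjusted p = 0.0566).
Rhcg relative to Rhbg differed by 0.03 (SE 0.05, permutation p = 0.524), so an unequal change of the 2 ammonia transporters was not detected.
With quantile normalization, Slc26a4 with Slc4a1 alone remained called of the 6 pairs (difference 0.46, adjusted p = 0.000977), and Car15 with Car2 turned to 0.08.

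Other probe sets of the same genes were dimmer and did not always follow.
The 3 Slc4a1 probe sets differed between segments by -0.60, -0.55 and -1.12, and the 3 of Car12 by -0.30, -0.36 and -1.27, all called.
Of the 5 for Slc4a8, 4 were lower in DCT/CNT (-0.44 to -0.89) and 1 differed by 0.0027 (adjusted p = 0.984).
The dimmest Slc4a1 probe set was called rhythmic over both segments (amplitude 0.19, SE 0.04, peak ZT 3.56, adjusted p = 0.0255).
Fitted over every probe set, no member was called in DCT/CNT (adjusted p = 0.0523 for Slc4a9).

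Relatives of these genes can be set beside all genes, of which 47% were lower and 30.4% higher in DCT/CNT as deposited. Called rhythmic were 6.57% of all genes in DCT/CNT, 2.47% in CCD and 11.1% over both segments.
Of 6 measured SLC4 family genes besides the members (7 listed), 0 were called rhythmic in either segment, and 0 had an unadjusted p under 0.05 in either segment (limma); 2 were lower and 2 higher in DCT/CNT.
Slc4a2, the widely expressed exchanger AE2, differed by -0.74 (SE 0.06) as deposited and by -0.25 with cyclic loess, called in both.
The median of the 6 turned from -0.10 as deposited to 0.18 with cyclic loess.
Of 9 measured SLC26 genes (10 listed), 4 were lower and 3 higher in DCT/CNT (5 and 2 with cyclic loess), and the sulfate transporter Slc26a2 was called rhythmic over both segments (amplitude 0.24, SE 0.06, peak ZT 16.4, adjusted p = 0.0302), in the dark phase and thus apart from pendrin.
Slc26a7, a chloride and bicarbonate exchanger of acid-secreting cells, had the largest segment difference of this family, 5.29 against 7.77 (-2.48, SE 0.11, adjusted p = 2.78e-11), and a difference of -2.41 to -2.27 under the 3 other scalings.
Of 13 other carbonic anhydrases, 8 were higher and 1 lower in DCT/CNT, and 6 and 4 with cyclic loess. The mean of the 13 was dim, with a median of 5.81 over DCT/CNT arrays and 5.37 over CCD arrays. In brightness group 4 (5.21 to 5.98) the median gene was 0.21 higher in DCT/CNT.
Among them Car14, a membrane enzyme, was called in both segments with amplitudes of 0.24 (peak ZT 9.99) and 0.23 (peak ZT 9.28).
The mitochondrial enzyme gene Car5b was called in DCT/CNT (amplitude 0.34, peak ZT 10.2, adjusted p = 0.000488) and over both segments.
Of 9 measured genes of ammonia handling (11 listed), Glul, which makes glutamine from ammonia, was called in both segments; 4 of the 9 were lower and 3 higher in DCT/CNT, and 3 and 6 with cyclic loess.
The amplitude of Glul was 0.46 (peak ZT 12.9, adjusted p = 0.000182) in DCT/CNT and 0.35 (peak ZT 13.1, adjusted p = 0.00379) in CCD.
Of 4 measured proton pump subunits (5 listed), Atp6v1c2 was called in CCD (adjusted p = 0.0476) and over both segments; 2 were higher in DCT/CNT under all 4 scalings, Atp6v1b1 (0.27, SE 0.06) and Atp6v0a4 (0.23, SE 0.05), and Atp6v0d2 was lower as deposited (-0.20, SE 0.04) and higher with cyclic loess (0.09).
Of 13 measured sensors and regulators (14 listed), 4 were called in DCT/CNT (Calr, Hif1a, Hmx2 and Jag1), 1 in CCD (Hmx2) and 6 over both segments (3 of them, Insrr, Dmrt2 and Hmx2, are also on the intercalated cell list); 8 were lower and 2 higher in DCT/CNT, and 5 and 3 with cyclic loess.
The Notch ligand gene Jag1 peaked at ZT 0.386 in DCT/CNT (amplitude 0.18, adjusted p = 0.0412) and the hypoxia factor Hif1a at ZT 17.2 (0.20, adjusted p = 0.0103).
Of the 13 intercalated cell markers, 8 were lower and 4 higher in DCT/CNT, with a median of -0.56, and with cyclic loess 6 were lower and 6 higher, with a median of -0.09.

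The genes whose array-to-array course was most like that of each member were sought over 24 arrays after subtraction of the segment means.
For Slc26a4 these were Emb (r = 0.87) and Tmem163 (0.84), and for Slc4a9 Paf1 (0.84) and again Emb (0.83).
Foxi1 was nearest to Fam118a (0.86) and Thbs1 (0.84), Car12 to Plcg2 (0.90) and Prxl2a (0.86), Slc4a1 to Foxp1 (0.84) and Laptm4b (0.79), and Car15 to Gngt2 (0.83) and Fam3b (0.78).
Car2 was nearest to Ppp1cb (0.85) and Tra2a (0.85).
The nearest genes to Slc4a8 (Ubn1, 0.77, and Eif4enif1, 0.73), Rhbg (Nfs1, 0.76, and Chmp2a, 0.75) and Rhcg (Anapc5, 0.73, and Aqp6, 0.72) were less close.
Of these neighbours Aqp6 is an intercalated cell gene on the marker list.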

How the data were processed

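The authors deposited 1 table of log2 RMA values for 45101 probe sets, per the labels and the submitters' processing notes, which give no version; whether both segments were normalised in 1 run is not given in the sources used here.
RMA subtracts background and forces array distributions towards each other, so differences of bright genes can be compressed.
Of the probe sets 34958 named 1 symbol, 932 several and 9211 none; 34754 matched the gene table (GRCm38.p6) by gene number.
One probe set per gene (highest mean) left 18194 genes, with no filter.
A 24 h cosine and sine with a mean per segment was fitted with limma 3.58.1 in R 4.3.3 (18 residual degrees of freedom) and tested with moderated F tests; segments were compared in a fit of 12 group means (12 degrees of freedom).
P-values were adjusted by Benjamini-Hochberg over all genes and called under 0.05.
The fits were tested on simulated data.
The genes and lists were chosen with earlier results of these data known.
All 10 members are named; of the 15 other lists only genes called rhythmic, defining markers or the 3 with the smallest segment p could be named, and the 2 nearest genes per member, leaving out clone-type names and olfactory receptors.
Alternatives were scaling, probe set, a filter at 6, array weights, a variance trend, omitted arrays or times, marker covariates, a pool block, a segment fitted alone and an F test over times.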

Additional observations from a re-analysis of the deposited data

How the results depend on the processing

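The number of members called rhythmic in DCT/CNT (1 of 10) was 0 with quantile normalization, with every probe set fitted, with array weights, without any 1 of the 6 times, with covariates for proximal tubule and loop markers or for intercalated cell markers, in the F test over group means and with the segment fitted alone.
It was 2 with the mean of probe sets, 3 with the filter at 6 and 4 with the variance trend, and 0 to 2 without 1 array; over all genes the alternatives other than omissions called 226 to 1775.
In CCD the count (1) was 2 with the filter or array weights, 4 with the trend, and 0 without ZT0, without ZT12, with the intercalated cell covariate, in the F test over group means and with the segment fitted alone; it was 0 to 1 without 1 array, and 117 to 846 of all genes were called.
Over both segments the count (4) was 2 with equal medians, with every probe set fitted and with the tubule covariates. Without ZT0, ZT4, ZT8 or ZT12 it was also 2, and without ZT16 or ZT20 it was 1. With the trend it was 7 (13.4% of all genes called). It was 0 with the intercalated cell covariate (3.02% of all genes) and in the F test over group means (5%). Without 1 array it was 2 to 4, with 1647 to 2140 of all genes called. The alternatives other than omissions called 550 to 3161 of all genes, or of all probe sets where each was fitted.
The count of members with a rhythm difference (0) did not change in any alternative run.

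The count with a segment difference (9, with 77.4% of all genes called) was 4 with quantile normalization, where 64.7% of all genes were called. It was 9 without any 1 array, with 13762 to 14080 of all genes called.
Directions that turned were those of Slc26a4 (0.192 with equal medians, 0.207 with cyclic loess, 0.0760 with quantile normalization), Car2 (0.0920 and 0.0994), Slc4a9 (0.0184 with quantile normalization, 0.0415 with loess), Car15 (0.0430 and 0.0434), 1 dim Slc4a8 probe set (0.0027) and Car15 relative to Car2 (0.0796 with quantile normalization).
Of the 6 pairs, 5 were called, 1 with quantile normalization and 4 to 5 without 1 array or without 1 time. Slc4a9 relative to Slc4a8 was not called without ZT8, ZT12 or ZT16 (permutation test, adjusted p = 0.0622, 0.131 and 0.106). Car15 relative to Car2 was not called without ZT0.
The cause of these changes was not tested.

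Same-numbered pools did not deviate together (r from -0.025 to 0.086 between segments), which cannot show whether they share animals. With pool number as a replicate block 0 members were called in DCT/CNT, 1 in CCD and 3 over both segments. With DCT/CNT and CCD pools of a time and number as the replicate block 9 had a segment difference.
Without the 3 DCT/CNT arrays of narrowest spread, 0 members were called in DCT/CNT and 2 over both segments. This alternative was added after seeing the data, like the test over both segments.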
